A study of Mus musculus with 8 samples.

Results

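Replication-dependent histone genes were examined in bulk RNA-seq of tumor-associated microglia and macrophages (TAMs) and of normal microglia. The members were the protein-coding genes of the deposited table whose symbols begin with Hist1h, Hist2h, Hist3h or Hist4h, which gave 62 of the 38026 genes listed. They encode 6 linker histones (H1), 19 H2A, 17 H2B, 7 H3 and 13 H4 genes. Of these, 50 lie in the Hist1 cluster on chromosome 13, 9 in Hist2 on chromosome 3, 2 in Hist3 on chromosome 11 and 1, Hist4h4, on chromosome 6.

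The 5 TAM libraries came from medulloblastoma, a tumor of the cerebellum, of C57BL/6 mice aged 68, 90, 61, 66 and 62 days in TAM libraries 1 to 5. The 3 microglia libraries came from the normal cerebral cortex of C57BL/6 mice, all aged 60 days. All 8 had been dissociated with papain, depleted of myelin, captured with beads against CD11b, an integrin subunit of microglia, macrophages and other myeloid cells, and extracted with Trizol. The gene or allele that drives the tumors is not given in the sources used here, and tumor, brain region and age cannot be told apart in this comparison. Replicates carry separate labels, but nothing says whether each came from its own animal, so p-values measure only the spread between these libraries. Levels are in TPM, transcripts per 1000000. This unit does not show how deeply a library was sequenced, so depth is unknown and values carry no counting error.

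Replication-dependent histones package newly copied DNA and are made mainly in S phase. Their genes stand in clusters in many near-identical copies and mostly lack introns. Their mRNAs are the ones in animal cells that usually end without a poly(A) tail: the 3′ end is cut just after a conserved stem-loop, which the stem-loop binding protein (Slbp) holds, with help of the U7 small nuclear ribonucleoprotein. Transcription depends on Npat, a coactivator that cyclin E and Cdk2 switch on. A few of these genes, mostly H1 and H2B ones, are known to make polyadenylated mRNA as well, also in cells that no longer divide. Replacement histones such as H3.3 and H2A.Z are made from other genes all through the cell cycle and from ordinary polyadenylated mRNA.

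The stem-loop is the feature that sets the 3′ end of these mRNAs, so its forms are shown here. The 16-base pattern (GG, any 3 bases, TT, any base, T, any base, A, any 3 bases, CC) was searched on the transcript strand after the stop codon in GENCODE M21 coding transcripts, and 43 of the 61 members with a coding transcript held it, beginning 22 to 59 bases after the stop codon. A transcript annotated to end at the stop codon could not show the pattern, so a member without a match may still have a stem-loop. The 7 forms are written as DNA, 5′ to 3′, with the loop (positions 7 to 10, counted from 1 at the 5′ end) in capitals.
Commonest form, 25 members including Hist1h1c, Hist2h2aa2 and Hist1h2bg: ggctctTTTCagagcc
H4 form, 7 members including Hist1h4h and Hist1h4n: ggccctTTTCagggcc
Form of Hist1h1t, Hist1h2bb, Hist1h2bk, Hist1h3c and Hist1h3e: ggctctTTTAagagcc
Form of Hist1h4b and Hist1h4j: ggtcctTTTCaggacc
Form of Hist1h4i and Hist2h4: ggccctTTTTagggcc
Form of Hist1h4a: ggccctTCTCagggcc
Form of Hist2h2ac: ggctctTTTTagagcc
Against the commonest form, the H4 form carries T4C and A13G, which keep the stem paired. The form of Hist1h1t and its group differs by C10A and that of Hist2h2ac by C10T, both in the loop. The form of Hist1h4i and Hist2h4 carries T4C, C10T and A13G, and that of Hist1h4b and Hist1h4j carries C3T, T4C, A13G and G14A. Hist1h4a carries T4C, T8C and A13G.

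Promoters of members from 4 of the 5 types show the elements that differ among the types. They are RefSeq sequences on GRCm38.p6, each from 250 bases before to 50 bases after the start, in the direction of the gene. Capitals mark the motifs of the CCAAT box, TATA box (TATAAA), octamer (ATTTGCAT) and H1 box (AAACACA), searched on either strand and at any position. The TATAAA of Hist1h4i lies far upstream of the start, so it need not be a TATA box.
Hist1h1c promoter, chr13:23738557-23738856, + strand: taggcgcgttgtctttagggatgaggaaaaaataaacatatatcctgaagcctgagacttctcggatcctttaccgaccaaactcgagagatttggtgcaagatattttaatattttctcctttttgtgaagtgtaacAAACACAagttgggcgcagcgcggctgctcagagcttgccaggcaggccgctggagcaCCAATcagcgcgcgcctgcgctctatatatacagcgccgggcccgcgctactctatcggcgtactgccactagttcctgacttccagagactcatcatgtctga
Hist2h2aa2 promoter, chr3:96240325-96240624, - strand: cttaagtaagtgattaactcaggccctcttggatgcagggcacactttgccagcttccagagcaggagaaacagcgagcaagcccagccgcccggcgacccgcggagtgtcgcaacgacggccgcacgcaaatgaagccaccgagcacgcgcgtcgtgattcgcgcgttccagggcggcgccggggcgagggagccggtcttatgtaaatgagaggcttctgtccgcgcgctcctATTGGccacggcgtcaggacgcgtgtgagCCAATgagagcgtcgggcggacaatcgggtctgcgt
Hist1h2bg promoter, chr13:23571150-23571449, + strand: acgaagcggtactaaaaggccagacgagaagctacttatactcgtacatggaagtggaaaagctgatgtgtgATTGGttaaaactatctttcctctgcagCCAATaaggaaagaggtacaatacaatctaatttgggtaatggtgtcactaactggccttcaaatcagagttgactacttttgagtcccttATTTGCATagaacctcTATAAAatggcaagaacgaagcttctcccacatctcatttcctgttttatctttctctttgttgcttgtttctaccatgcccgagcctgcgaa
Hist1h4i promoter, chr13:22041313-22041612, - strand: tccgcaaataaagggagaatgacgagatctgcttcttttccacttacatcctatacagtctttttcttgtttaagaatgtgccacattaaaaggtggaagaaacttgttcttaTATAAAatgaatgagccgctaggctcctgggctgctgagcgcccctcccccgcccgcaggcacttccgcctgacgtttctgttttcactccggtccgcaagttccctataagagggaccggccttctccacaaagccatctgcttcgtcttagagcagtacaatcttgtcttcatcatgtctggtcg
The window of Hist2h2aa2 ends before the deposited start of that gene (chr3:96240276), so it may miss elements near that start. The window of its copy Hist2h2aa1 holds TATAAA. Of the members, 57 matched the RefSeq promoter table. CCAAT, the site of the factor NF-Y, stood in 48 of these 57 (84.2%), against 41.1% of all 27025 genes with a promoter in that table. It was found in all 6 H1, all 18 H2A, all 15 H2B and all 6 H3 promoters that matched, and in 3 of 12 H4 promoters. TATAAA stood in 32 of 57 (56.1%), against 15.7% of all genes. The octamer, known from H2B promoters as a site of POU factors, stood in 12 of 57 (21.1%), against 1.97% of all genes, and these were 7 of 18 H2A and 5 of 15 H2B promoters. AAACACA, known from H1 promoters, stood in 9 of 57 (15.8%), against 8.22% of all genes, and these were 5 of 6 H1, 2 of 18 H2A and 2 of 15 H2B promoters. Head-to-head H2A and H2B genes share much of this window, so their matches are not independent, and a match is no evidence of binding.

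A few genes carried most of the histone signal. The 6 members with a mean of at least 10 TPM over the 8 libraries were Hist1h1c (97.7 TPM), Hist1h2bc (84.8 TPM), Hist2h2aa2 (39.8 TPM), Hist1h2al (26.2 TPM), Hist1h4i (19.7 TPM) and Hist1h2bg (13.4 TPM). Together they held 78.5% of the members' TPM. At the other end, 32 members had a mean below 1 TPM, 30 were listed at 0 in at least 1 library, and Hist1h2ba, a testis H2B gene, was listed at 0 in all 8. In the authors' deposited table, 28 members had a mean normalised count under 10 and 10 had at least 100. Near-identical copies can also trade reads: 43 members fell into 5 families of transcripts with at least 95% identity over at least 80% of the shorter, and 23 members overlap another annotated gene. Values of single members are therefore less certain than the sums over families given further on.

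**Figure D1:**
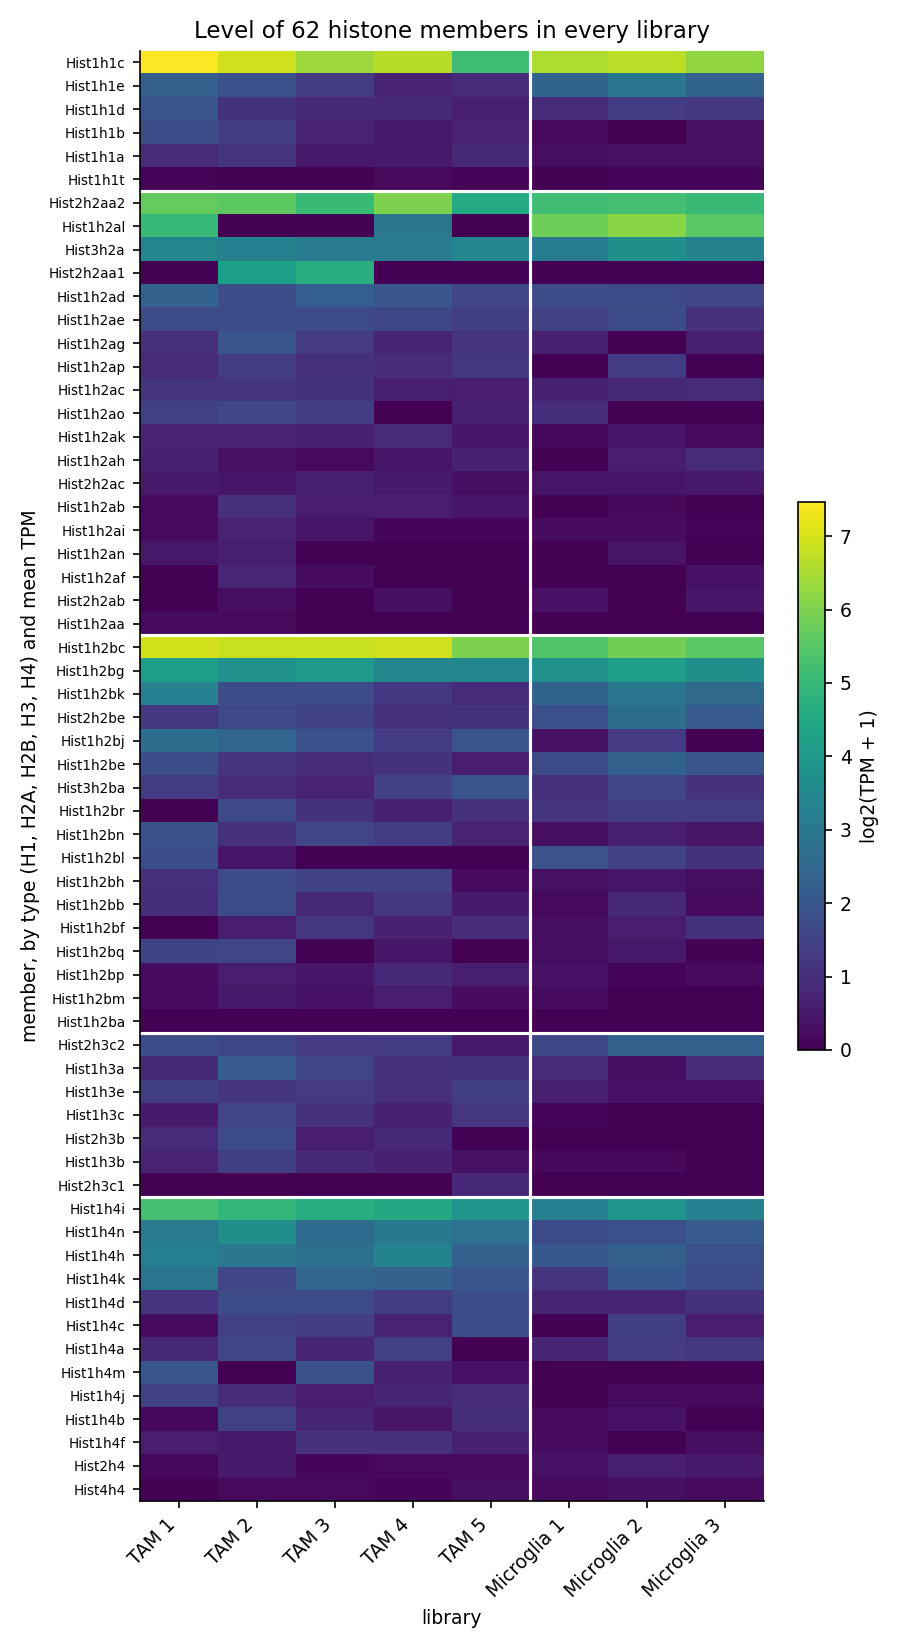
Level of each of the 62 members as log2(TPM + 1) (colour) in the 5 TAM libraries on the left and the 3 microglia libraries on the right, grouped by histone type and ordered by mean TPM within a type. Hist1h1c and Hist1h2bc are bright in all 8 libraries, and Hist1h2al (high in microglia, listed at 0 in TAM 2, 3 and 5) and Hist2h2aa1 (above 0 in TAM 2 and 3) stand out by their gaps.

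Summed H4 and H2B mRNA had higher means in TAMs than in microglia, H3 mRNA was low in all libraries, and the H1 and H2A sums overlapped between the groups. Summed H4 TPM was 66.9, 60.5, 49.0, 49.1 and 34.9 in TAMs 1 to 5, against 17.3, 28.1 and 21.3 in microglia 1 to 3. Every TAM library was above every microglia library, and the ratio of the means (52.1 ± 12.3 TPM in TAMs and 22.2 ± 5.44 TPM in microglia; SD, n = 5 and 3) was 2.34. Summed H2B TPM was 169, 150.1, 144, 144.5 and 85.2 in TAMs, against 69.8, 99.2 and 75.3 in microglia. Here TAM 5 lay within the microglia range, and the ratio of the means (139 ± 31.5 TPM in TAMs and 81.4 ± 15.7 TPM in microglia) was 1.70. Without Hist1h2bc the log2 ratio of the H2B sums was -0.070, so that gene carried the difference on deposited TPM. The ratio without Hist1h2bc is not given for the second scale used below. Summed H3 TPM was 6.78, 12.7, 7.12, 5.55 and 5.43 in TAMs, against 3.78, 4.64 and 5.24 in microglia, a ratio of 1.65 with no overlap.

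Summed H1 TPM was 186, 127, 85.2, 102 and 37.5 in TAMs, against 98.1, 111 and 79.7 in microglia. The TAM libraries lay on both sides of the microglia range, and the ratio of the means was 1.12. Without TAM 1 the log2 ratio of the H1 means changed sign to -0.13, against 0.16 with all libraries. Summed H2A TPM was 104, 90.4, 77.2, 87.2 and 41.4 in TAMs, against 105, 127 and 93.6 in microglia, a ratio of 0.735. That sum rests on Hist1h2al: over the other 18 H2A genes the sums were 72.8, 90.4, 77.2, 80.3 and 41.4 TPM in TAMs, against 49.9, 57.2 and 47.4 TPM in microglia, a ratio of 1.41. TAM 5 had the lowest sum of H1, H2A, H2B, H3 and H4 alike among the TAM libraries. Over all 62 members the sums were 533, 440.4, 363, 389 and 204.5 TPM in TAMs, against 294, 371 and 275 TPM in microglia. In bulk RNA, fewer cells of a kind and less RNA per cell cannot be told apart, so none of these sums is a level per dividing cell.

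Values were also compared on a second scale. Over the 15262 genes tested (at least 1 TPM in at least 3 libraries), the median log2 fold change was -0.65 on deposited TPM, well under 0. When each library was divided by its median ratio to the average library, a rescaling described in the processing section, the median of all genes was -0.039. On that scale the ratio of the summed means was 4.02 for H4, 2.91 for H2B, 2.78 for H3, 1.92 for H1 and 1.25 for H2A, and over all members it was 2.10. H2A thus lay below 1 on TPM and above 1 after rescaling, while the other 4 types were above 1 on both scales. The rescaled H1 and H2A sums of TAM 5 (36.1 and 39.8) still lay below those of all 3 microglia libraries (56.3 to 84.2 and 66.2 to 90.4).

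**Figure D2:**
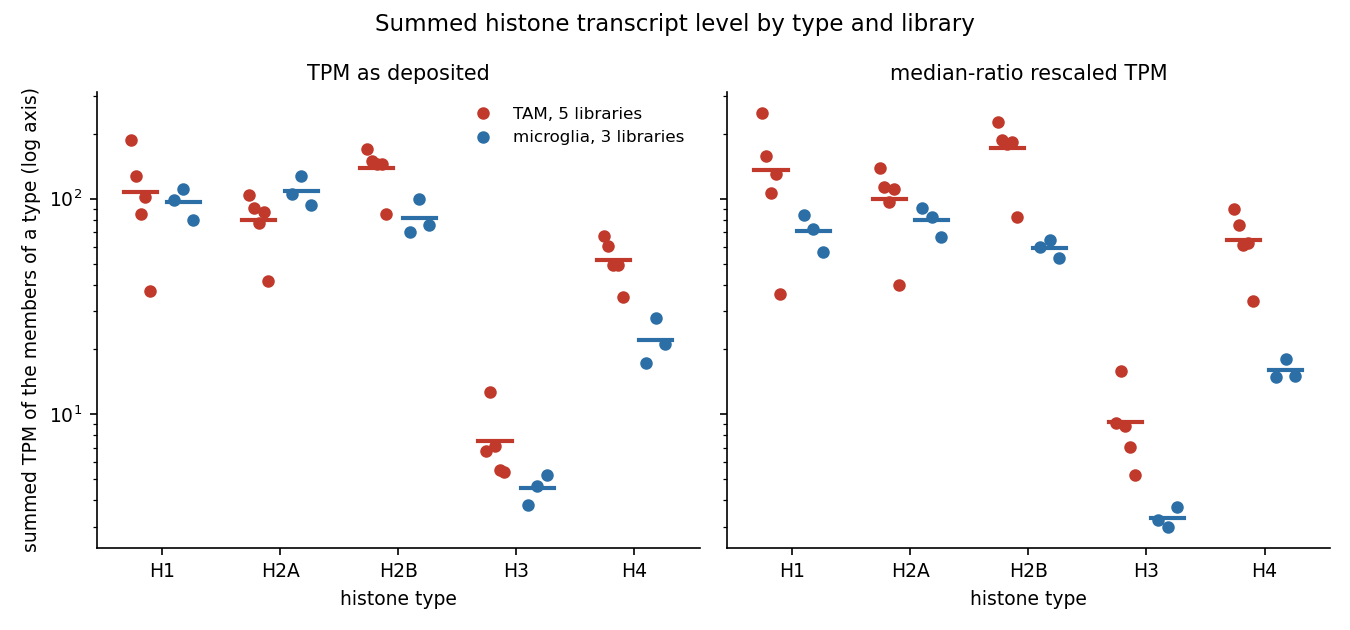
Summed TPM of the members of each histone type per library on a log axis, TPM as deposited on the left and rescaled TPM on the right. Points are libraries (red TAM, blue microglia) and bars are group means; H4 and H3 libraries do not overlap between the groups on either scale, while H1 and H2A libraries overlap on both.

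Of the 62 members, 34 passed the filter on low values and 28 did not. Of the 34, 8 reached 1 TPM in no microglia library and passed through TAMs alone, so the counts below are a description and no support. With limma on log2(TPM + 1), 10 of the 34 were higher in TAMs at an adjusted p of 0.05 and 4 were lower, where 8.22% of all tested genes were higher and 56.4% lower. The higher members were Hist1h2ag, Hist1h2bc, Hist1h2bj, Hist1h2bn, Hist1h3c, Hist1h3e, Hist1h4d, Hist1h4h, Hist1h4i and Hist1h4n. The lower ones were Hist1h1e, Hist1h2al, Hist1h2be and Hist2h2be. Of the 10 higher members, 6 also reached 1 TPM in a microglia library. The others, Hist1h2ag, Hist1h2bn, Hist1h3c and Hist1h3e, passed through TAMs alone. The tested members had a median log2 fold change of 0.28, against -0.65 for all tested genes. After rescaling, 16 members were higher and 1, Hist1h2al, was lower (24.6% and 25.1% of all tested genes), with a median of 0.78 against -0.039. Without a filter, 17 of the 61 members above 0 were higher and 4 lower on TPM (4.42% and 40.3% of 27465 genes), and 21 and 0 after rescaling (12.9% and 18.3%), with 30 and 1 at an unadjusted p under 0.05 in limma (16.4% and 25.5%). With each family of near-identical copies summed, 5 of 15 tested families or single members were higher and 3 lower on TPM (8.2% and 56.5% of all tested), and 7 and 1 after rescaling (24.6% and 25.2%). Leaving out 1 library gave 6 to 11 higher members on TPM, and 6 without microglia 3. Over the 14048 to 15166 genes then tested, 894 to 1303 were higher.

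In the authors' deposited table, 60 members had a p-value, and after Benjamini-Hochberg adjustment here over all 27039 genes with one, 29 were higher in TAMs and 0 lower, where 17.6% of all genes were higher and 16% lower. At an unadjusted p under 0.05, the authors' deposited table had 33 members higher and 0 lower, against 20.4% and 19.6% of all genes. Of those 60 members, 52 had a positive log2 fold change in the authors' deposited table. The 10 members called higher on TPM were among those called higher after rescaling and in the authors' deposited table. Libraries did not overlap between the groups for 10 tested members higher in TAMs and 3 lower on TPM (7.97% and 49.7% of all tested genes), and for 15 and 0 after rescaling (24.1% and 24.6% of all tested genes).

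**Figure D3:**
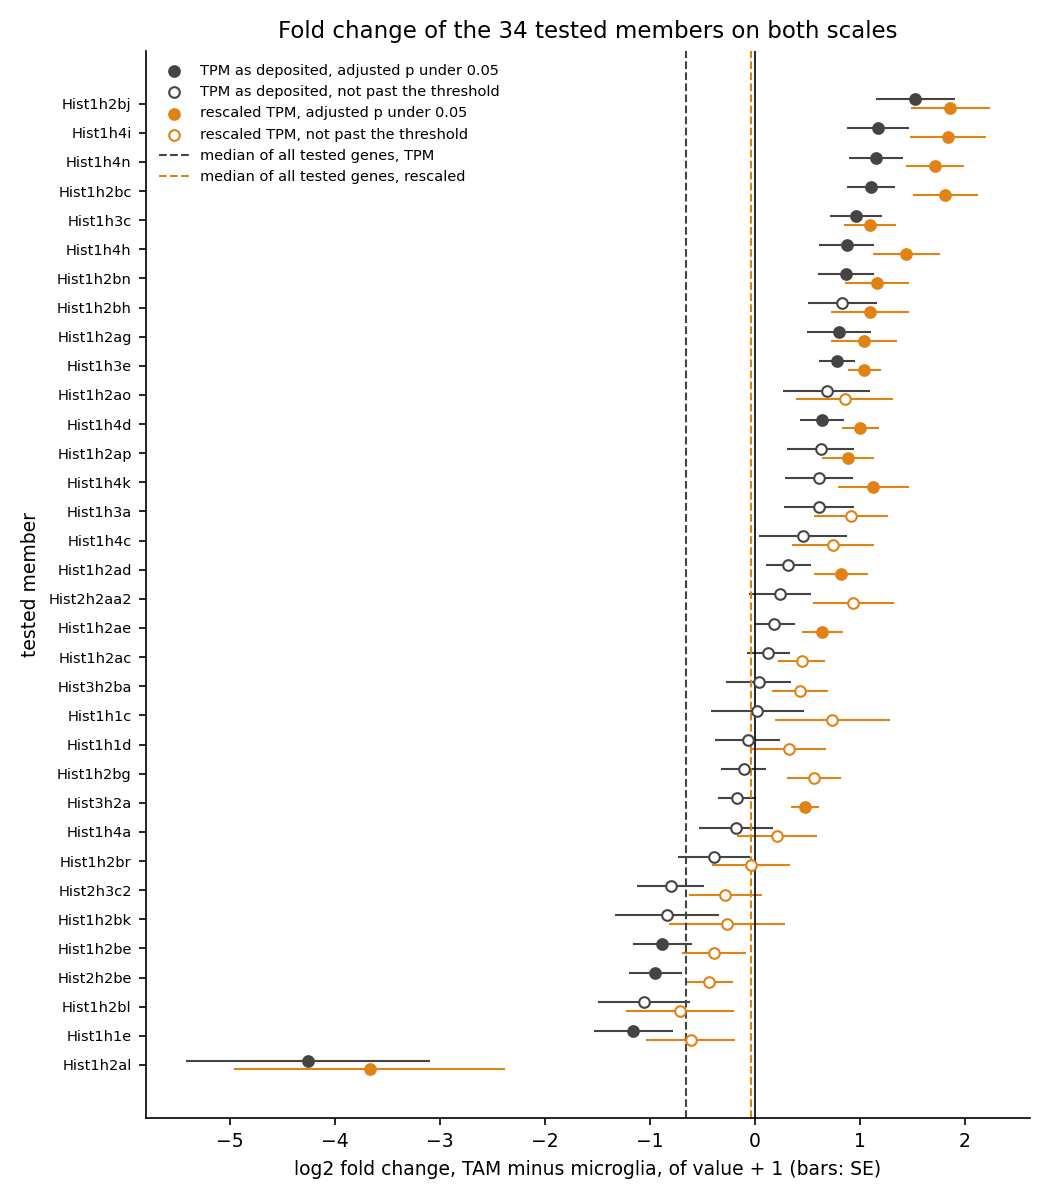
Log2 fold change, TAM minus microglia, of the 34 tested members on TPM as deposited (grey) and on rescaled TPM (orange), with SE bars; filled points passed an adjusted p of 0.05 in limma, and dashed lines mark the median of all tested genes (-0.65 on TPM, -0.039 rescaled). Most members lie right of the dashed line of their scale, and Hist1h2al lies far to the left on both.

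Linker histones bind the DNA that enters and leaves the nucleosome. Hist1h1c, the most abundant member, had 176, 120.2, 81.8, 99.8 and 34.6 TPM in TAMs, against 92.6, 103 and 73.6 TPM in microglia. TAMs 1 and 2 were above and TAM 5 below all microglia, so the groups overlapped. Its log2 fold change was 0.026 ± 0.45 (SE; adjusted p = 0.963, limma). After rescaling it was 0.74 (adjusted p = 0.295, limma), or 1.15 without TAM 5, the lowest library, which was left out after its value was seen. It lies at chr13:23738808-23740367 on mm10, and its annotated transcript runs 840 bases past the stem-loop.

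Hist1h1e had 3.82, 2.70, 1.47, 0.635 and 0.851 TPM in TAMs, against 4.28, 6.64 and 4.17 TPM in microglia, and every TAM library was lower. On TPM the log2 fold change was -1.16 ± 0.38 (adjusted p = 0.0248, limma), but -0.61 after rescaling (adjusted p = 0.256). Hist1h1d had 2.95, 1.14, 0.809, 0.794 and 0.538 TPM in TAMs, against 0.871, 1.49 and 1.32 TPM in microglia, with TAM 1 highest and TAM 5 lowest of all. The log2 fold change of Hist1h1d was -0.066 (adjusted p = 0.860, limma). Hist1h1a and Hist1h1b did not pass the filter, although every TAM library was above every microglia library in both. Hist1h1b, an H1 gene known from dividing cells, had 2.26, 1.45, 0.690, 0.454 and 0.630 TPM in TAMs, against 0.136, 0 and 0.254 TPM in microglia. Hist1h1t, the testis H1 gene, stayed at or below 0.140 TPM in all libraries.

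H2A pairs with H2B on the outside of the nucleosome core. Hist2h2aa2 had 49.8, 47.5, 31.9, 63.4 and 22.8 TPM in TAMs, against 34.9, 36.4 and 31.7 TPM in microglia, a log2 fold change of 0.24 ± 0.30 (adjusted p = 0.497, limma). Its near-identical copy Hist2h2aa1 had 17.6 and 24.5 TPM in TAMs 2 and 3 and was listed at 0 in TAMs 1, 4 and 5 and in all 3 microglia libraries. Counting can split reads between such close copies, so the single values are uncertain and the pair was also summed, to 49.8, 65.1, 56.4, 63.4 and 22.8 TPM in TAMs, against 34.9, 36.4 and 31.7 TPM in microglia. In these sums 4 TAM libraries were above all microglia and TAM 5 was below. The log2 fold change of the pair was 0.49 (adjusted p = 0.200, limma), and 1.19 after rescaling (adjusted p = 0.0426).

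Hist1h2al had 30.8, 0, 0, 6.84 and 0 TPM in TAMs, against 55.4, 70.3 and 46.2 TPM in microglia. All TAM libraries were lower and 3 were listed at 0. On TPM its log2 fold change was -4.25 ± 1.16 (adjusted p = 0.0120, limma) and -3.67 after rescaling (adjusted p = 0.0445). In the authors' deposited table its log2 fold change was -1.01 with an adjusted p of 0.666, so the call was not shared. This gene lies at chr13:51202688-51203065 on mm10, far from the other Hist1 members, and GENCODE M21 gives it no coding transcript. It was therefore not part of the search for near-identical copies, and it overlaps Gm44341 on the opposite strand. Whether its reads were shared with other genes was not tested, so its single values are uncertain too.

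Hist3h2a had 9.46, 8.46, 7.40, 7.20 and 9.73 TPM in TAMs, against 7.87, 12.2 and 9.08 TPM in microglia, with overlapping and narrow groups. Its log2 fold change was -0.17 on TPM (adjusted p = 0.418, limma), but 0.48 after rescaling (adjusted p = 0.0182), so its direction depends on the scale. Hist1h2ag, which reached 1 TPM in TAMs alone, had 1.02, 3.02, 1.43, 0.697 and 1.23 TPM in TAMs, against 0.625, 0 and 0.544 TPM in microglia. Summed over the 12 near-identical Hist1 H2A copies, TPM was 12.9, 16.1, 12.8, 9.08 and 8.68 in TAMs, against 6.51, 8.25 and 5.86 in microglia. No TAM library overlapped, and the log2 fold change was 0.69 (adjusted p = 0.0231, limma) and 1.33 after rescaling (adjusted p = 0.00420).

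H2B is the histone whose ubiquitination accompanies transcription. Hist1h2bc had 123, 115, 113, 121 and 62.6 TPM in TAMs, against 41.3, 56.7 and 46.2 TPM in microglia. All TAM libraries were above all microglia, with TAM 5 nearest to them. Its log2 fold change was 1.11 ± 0.23 (adjusted p = 0.00355, limma), 1.81 after rescaling (adjusted p = 0.00217), and 2.01 in the authors' deposited table. Hist1h2bc spans chr13:23684199-23692488 on mm10, and its annotated coding transcript has 2 exons and a long 3′ end without the stem-loop.

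Hist1h2bg had 17.1, 12.7, 15.5, 9.53 and 10.3 TPM in TAMs, against 12.7, 17.1 and 11.9 TPM in microglia, and the groups overlapped. Its log2 fold change was -0.11 ± 0.22 (adjusted p = 0.680, limma), and 0.56 after rescaling (adjusted p = 0.103). Hist1h2bj had the largest log2 fold change of the tested members on TPM, 1.53 ± 0.38 (adjusted p = 0.00757, limma). It had 5.51, 4.40, 2.71, 1.51 and 2.83 TPM in TAMs, against 0.274, 1.35 and 0 TPM in microglia, without overlap.

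Other H2B genes lay lower in TAMs on TPM. Hist2h2be, which has a long annotated 3′ end without the stem-loop, had 1.26, 2.16, 1.71, 0.989 and 1.15 TPM in TAMs, against 2.52, 5.49 and 3.42 TPM in microglia. No TAM library reached the microglia, and the log2 fold change was -0.95 ± 0.25 (adjusted p = 0.0106, limma), but -0.43 after rescaling (adjusted p = 0.142). Hist1h2be had a log2 fold change of -0.88 (adjusted p = 0.0227, limma) on TPM and -0.39 after rescaling (adjusted p = 0.319), and its span overlaps the GENCODE M21 span of Hist1h1e in part. Hist1h2bk had 9.01, 2.47, 2.28, 1.33 and 0.901 TPM in TAMs, against 4.25, 6.57 and 5.00 TPM in microglia. TAM 1 was above all microglia and the other 4 were below. The log2 fold change was -0.84 (adjusted p = 0.162, limma), or -1.22 without TAM 1, which was left out after its value was seen. After rescaling it was -0.26 (adjusted p = 0.715, limma), and it was 0.21 in the authors' deposited table.

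Hist1h2bl had 2.48, 0.343, 0, 0 and 0 TPM in TAMs, against 2.78, 1.79 and 1.13 TPM in microglia. TAM 1 again stood apart. The log2 fold change was -1.05 (adjusted p = 0.0624, limma), or -1.39 without TAM 1, again left out after its value was seen. The rescaled value for Hist1h2bl was -0.71 (adjusted p = 0.278, limma). Hist3h2ba had 1.49, 0.863, 0.632, 1.75 and 2.87 TPM in TAMs, against 1.04, 2.04 and 1.09 TPM in microglia, which overlapped. Over the 14 near-identical Hist1 H2B copies the summed TPM was 166, 147, 142, 141.7 and 81.2 in TAMs, against 66.3, 91.7 and 70.8 in microglia. The log2 fold change of this family was 0.80 (adjusted p = 0.0149, limma), and 1.51 after rescaling (adjusted p = 0.00498).

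H3 forms the centre of the core particle with H4 and carries many of the known histone marks. Its 7 genes were low, with means over the 8 libraries of at most 2.24 TPM. Hist2h3c2 had 2.41, 2.08, 1.40, 1.47 and 0.401 TPM in TAMs, against 2.09, 4.00 and 4.02 TPM in microglia, a log2 fold change of -0.80 ± 0.32 (adjusted p = 0.0531, limma). After rescaling it was -0.28 (adjusted p = 0.527, limma). Hist1h3e had 1.61, 1.25, 1.40, 1.07 and 1.61 TPM in TAMs, against 0.578, 0.283 and 0.301 TPM in microglia, without overlap. Its log2 fold change was 0.78 ± 0.17 (adjusted p = 0.00420, limma). Hist1h3c had 0.442, 1.95, 1.09, 0.604 and 1.26 TPM in TAMs, against 0.0858, 0 and 0 TPM in microglia (log2 fold change 0.96, adjusted p = 0.0096, limma). Hist1h3e and Hist1h3c reached 1 TPM in TAMs alone, so their p-values are a description and no support. Hist1h3a had 0.779, 3.55, 1.95, 1.00 and 1.13 TPM in TAMs, against 0.911, 0.239 and 0.917 TPM in microglia, and its groups overlapped.

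These folds understate changes of such low genes, because 1 was added before the logarithm. In the authors' deposited table, the log2 fold changes were 4.62 for Hist1h3c, 2.53 for Hist1h3e and 1.95 for Hist1h3a. Hist2h3c2 had -0.16 there, a smaller change than on TPM, and the authors' values also rest on another scale. Hist2h3b and Hist2h3c1, listed at 0 in all microglia libraries, did not pass the filter. Over the 5 near-identical H3 copies the sums were 4.40, 7.92, 3.77, 3.48 and 2.69 TPM in TAMs, against 2.29, 4.12 and 4.02 TPM in microglia. These overlapped, and the family's log2 fold change was 0.24 (adjusted p = 0.496, limma), and 0.81 after rescaling (adjusted p = 0.0674).

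Of the 7 tested H4 genes, 4 were higher in TAMs on TPM and 5 after rescaling (limma). Of all tested genes, 8.22% and 24.6% were higher. Hist1h4i had 36.7, 30.1, 24.1, 21.9 and 13.98 TPM in TAMs, against 8.56, 13.5 and 8.997 TPM in microglia, without overlap. The log2 fold change was 1.18 ± 0.29 (adjusted p = 0.00802, limma), 1.84 after rescaling (adjusted p = 0.00387) and 2.14 in the authors' deposited table. Hist1h4n had 7.69, 11.9, 5.14, 7.06 and 6.07 TPM in TAMs, against 2.17, 2.56 and 3.55 TPM in microglia, again without overlap (log2 fold change 1.16 ± 0.26, adjusted p = 0.00485, limma). Hist1h4h had 8.41, 6.77, 5.69, 9.41 and 4.00 TPM in TAMs, against 3.19, 3.79 and 2.56 TPM in microglia. All TAM libraries were higher, and the log2 fold change was 0.87 ± 0.26 (adjusted p = 0.0169, limma), with an adjusted p of 0.0714 without microglia 3.

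Hist1h4k had 6.36, 2.02, 4.46, 4.11 and 2.98 TPM in TAMs, against 1.21, 3.19 and 2.30 TPM in microglia. TAMs 2 and 5 lay within the microglia range, and the log2 fold change was 0.61 (adjusted p = 0.128, limma), or 1.13 after rescaling (adjusted p = 0.0241). Hist4h4 stayed between 0.0294 and 0.217 TPM in TAMs and between 0.160 and 0.226 TPM in microglia. Over the 10 near-identical Hist1 H4 copies the sums were 65.5, 57.6, 46.6, 47.4 and 32.2 TPM in TAMs, against 16.1, 26.6 and 19.6 TPM in microglia. The log2 fold change of this family was 1.21 ± 0.24 (adjusted p = 0.00283, limma), and 1.90 after rescaling (adjusted p = 0.00143).

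The annotated 3′ ends differed among members. In GENCODE M21, 22 members end within 100 bases of the stem-loop, 21 run on past it, 4 have a long 3′ end without it, 14 have under 60 bases after the stop codon and no stem-loop, and Hist1h2al has no coding transcript. Most of the 14 with a short end stop within 2 bases of the stop codon, so a stem-loop further on could not be seen. The deposited spans of some members are shorter than their GENCODE M21 transcripts. Hist1h2bg, for example, is deposited at chr13:23571408-23571884, while its GENCODE M21 transcript has 618 bases. The annotation behind the TPM is not given, so these classes need not match the transcripts that were counted. The 4 members with a long end and no stem-loop are Hist1h2bc, Hist1h2bq, Hist1h2br and Hist2h2be. Of the members with a coding transcript, 57 have 1 exon and 4 have 2. Of the 6 members with a mean of at least 10 TPM, Hist1h1c, Hist1h2bg and Hist1h4i run on past the stem-loop, Hist1h2bc lacks it, and Hist2h2aa2 ends within 100 bases of it. The median of the members' mean levels was 0.855 TPM among those that end within 100 bases and 1.24 TPM among those that run on.

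Members that end near the stem-loop were summed to 95.4, 114, 91.9, 95.6 and 48.9 TPM in TAMs, against 51.2, 56.8 and 48.4 TPM in microglia, a ratio of 1.71. TAM 5 lay within the microglia range and the other 4 lay above it. Those that run on past it were summed to 263, 194, 146, 155 and 84.6 TPM in TAMs, against 137, 172 and 123 TPM in microglia, a ratio of 1.17, and Hist1h1c held 61.3% of that sum. The 4 members with a long end and no stem-loop, mostly Hist1h2bc, had a ratio of 2.06. After rescaling the ratios were 2.89 for members that end near the stem-loop, 2.00 for those that run on and 3.52 for those with a long end without it. How RNA was selected for the libraries (by poly(A) tail or otherwise) is not given in the sources used here, and mRNAs without a tail would be lost with poly(A) selection. Rn7sk, an RNA without a poly(A) tail, was present at 44.0, 62.6, 51.6, 44.0 and 35.9 TPM in TAMs, against 101, 98.2 and 69.3 TPM in microglia. Rmrp and Rpph1, which also lack a tail, were low, with 1.08 to 5.49 and 0.266 to 2.47 TPM in TAMs, against 0.449 to 3.04 and 0.770 to 1.02 TPM in microglia. Their part, and that of RNA selection, in the histone values was not tested.

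**Figure D4:**
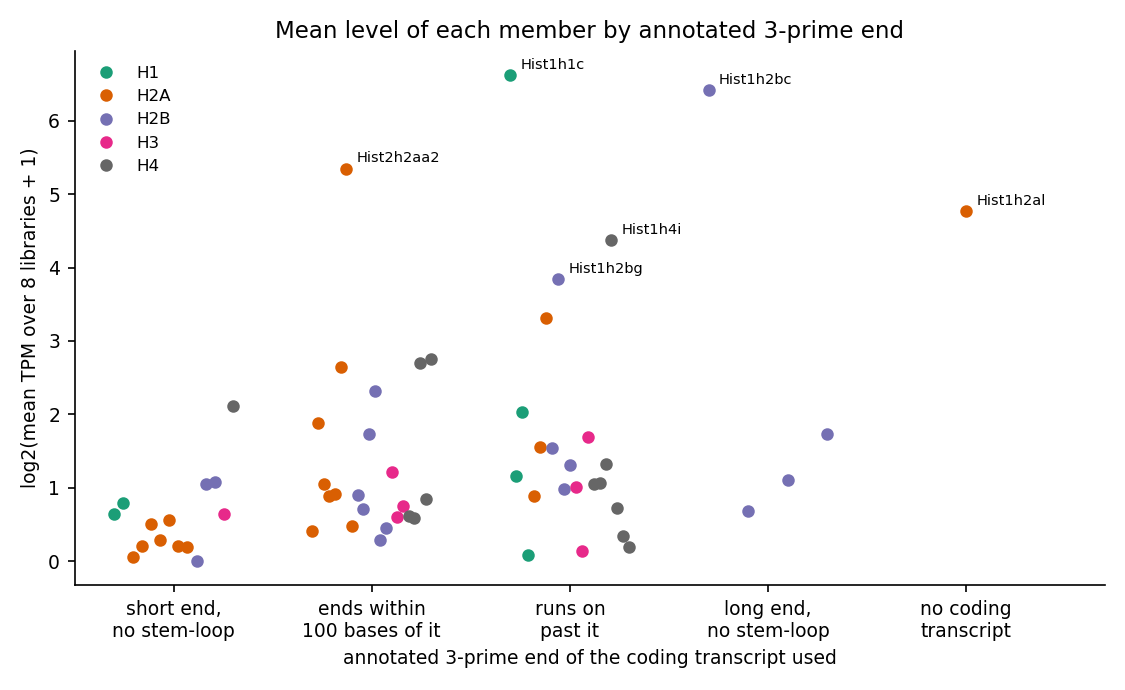
Mean level of each member over the 8 libraries, as log2(mean TPM + 1), by the kind of 3′ end of its annotated coding transcript; colours are histone types and members with a mean of at least 10 TPM are named. Low and high members occur among transcripts that end near the stem-loop and among those that run on, and Hist1h2bc (84.8 TPM) stands far above the other 3 members with a long end and no stem-loop.

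Many H2A and H2B genes stand head to head. In 12 such pairs the starts lay 236 to 306 bases apart. Levels within a pair were often unequal. Of the 11 pairs with both genes above 0, the H2B gene had the higher mean TPM in 9, and in 5 pairs it was higher in 8 of 8 libraries. The widest gap was in Hist1h2ac and Hist1h2bc, with 0.857 and 84.8 TPM on average. Hist1h2ac had 1.18, 1.24, 1.14, 0.539 and 0.524 TPM in TAMs, against 0.591, 0.766 and 0.865 TPM in microglia, a log2 fold change of 0.13 (adjusted p = 0.595, limma). In the pair Hist1h2ae and Hist1h2bg, the log2 fold changes were 0.19 and -0.11 on TPM, and Hist1h2bg had 6.92 times the mean TPM of Hist1h2ae. Both genes of the pair Hist1h2ag and Hist1h2bj were higher in TAMs, with log2 fold changes of 0.80 and 1.53 (adjusted p = 0.0455 and 0.00757, limma). Hist1h2ag passed the filter through TAMs alone, so its p-value is no support. The reverse order of levels was seen in Hist1h2ad and Hist1h2bf, with 2.70 and 0.638 TPM on average and Hist1h2ad higher in 8 of 8 libraries. These levels are per length but rest on different transcript ends and shared copies.

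**Figure D5:**
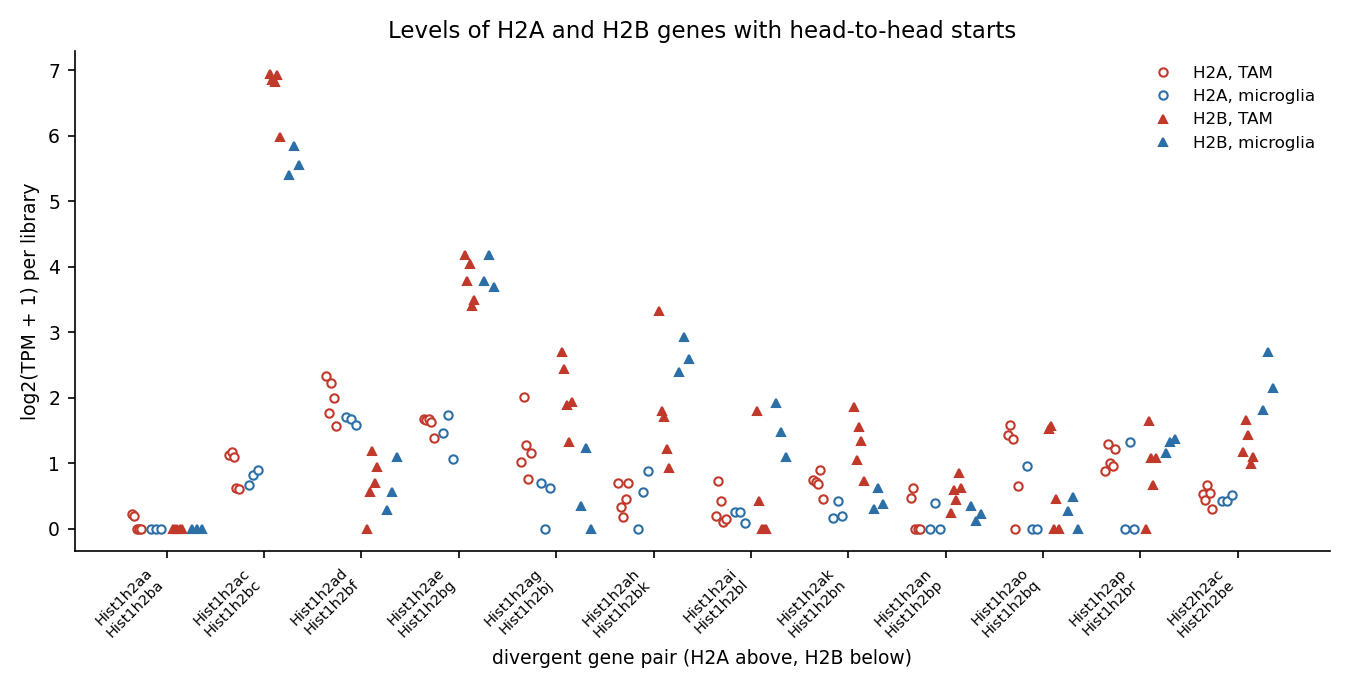
Level of each gene of the 12 head-to-head pairs per library as log2(TPM + 1), H2A genes as open circles and H2B genes as triangles, with TAM (red) left of microglia (blue). Hist1h2bc and Hist1h2bg stand above their H2A partners in all 8 libraries, and Hist1h2ad stands above Hist1h2bf.

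Genes that work with these histones were described through 4 lists, whose counts are to be read against all tested genes: 8.22% were higher and 56.4% lower in TAMs on TPM, and 24.6% and 25.1% after rescaling. At an unadjusted p under 0.05 in limma, 8.9% were higher and 59.7% lower on TPM, and 27.8% and 28.8% after rescaling. Of 30 S phase genes (DNA replication factors, nucleotide synthesis enzymes and their cyclins), 19 were higher and 1, Cdk2 (-0.65 on TPM and 0.029 after rescaling), lower in TAMs on TPM, and 27 and 0 after rescaling (28 and 0 at an unadjusted p under 0.05 in limma, and 28 and 0 by adjusted p in the authors' deposited table). Their median log2 fold change was 0.74 on TPM and 1.28 after rescaling. Ccna2, the cyclin of S phase, averaged 15.4 TPM in TAMs, against 3.01 TPM in microglia, a log2 fold change of 2.02 (adjusted p = 0.000150, limma). Rrm2, a subunit of ribonucleotide reductase, averaged 17.4 TPM in TAMs, against 2.08 TPM in microglia, a log2 fold change of 2.53. Uhrf1, which brings DNA methylation to new strands, and Gins2, part of the replicative helicase, had log2 fold changes of 2.12 and 1.15.

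The summed S phase genes were 414, 731, 567, 421 and 556 TPM in TAMs, against 342, 400.4 and 360.1 TPM in microglia. TAM 2 was highest here while TAM 1 was highest in the histone sum, and TAM 5, lowest in histones, lay in the middle. Of 25 histone chaperones, 5 were higher and 11 lower on TPM, and 12 and 2 after rescaling. Chaf1a and Chaf1b, subunits of the factor that places new H3 and H4 behind the replication fork, had log2 fold changes of 1.37 and 1.72 on TPM (adjusted p = 0.00125 and 0.000524, limma). Chaf1b averaged 7.20 TPM in TAMs and 1.46 TPM in microglia. Npm1, which carries histones in the nucleolus, had 0.46, and Vps72, which helps load H2A.Z, had -1.08 on TPM and -0.38 after rescaling.

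Of 21 tested genes for the 3′ end and turnover of histone mRNA, 0 were higher and 13 lower on TPM with limma, but 6 were higher and 2 lower after rescaling. The share lower on TPM and the share higher after rescaling were near those of all tested genes. At an unadjusted p under 0.05 the count of higher genes on TPM was also 0, and 10 genes were higher and 2 lower by adjusted p in the authors' deposited table. Slbp, named for its role and not for its rank, averaged 31.5 TPM in TAMs and 43.3 TPM in microglia, a log2 fold change of -0.46 on TPM (adjusted p = 0.0256, limma) and 0.24 after rescaling (adjusted p = 0.0752). Npat, likewise, averaged 3.37 TPM in TAMs and 5.97 TPM in microglia, with a log2 fold change of -0.67 on TPM and -0.083 after rescaling. Zcchc6 and Zcchc11, terminal uridylyltransferases, were lower in TAMs on both scales, with log2 fold changes of -1.12 and -1.76 on TPM and of -0.42 and -1.08 after rescaling; Zcchc11 was named after its values were seen. Cpsf3, the nuclease that cuts pre-mRNA 3′ ends, Cstf2t and Exosc10 had -0.66, -0.90 and -0.79 on TPM, and 0.039, -0.24 and -0.086 after rescaling.

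Among the replacement histones, H3.3 mRNA had far higher TPM than the H3 members. It is polyadenylated and that of the members usually is not. How RNA was selected is not given, and its part in this gap was not tested. H3f3a and H3f3b, which encode H3.3, averaged 599 and 672 TPM in TAMs, against 575 and 960.2 TPM in microglia, while all H3 members together averaged 7.52 TPM in TAMs and 4.56 TPM in microglia. Not all replacement genes were this abundant: H1f0 was listed with 38.2 TPM in TAMs and 46.1 TPM in microglia and H2afy2 with 2.72 TPM in TAMs and 2.61 TPM in microglia. Of 11 tested replacement genes, 4 were higher (H2afx, H2afz, H2afj and Cenpa) and 3 lower (H2afv, H2afy and H3f3b) on TPM, and 6 and 0 after rescaling (9 and 0 at an unadjusted p under 0.05 in limma, and 9 and 0 by adjusted p in the authors' deposited table). Cenpa, the histone of centromeres, averaged 63.0 TPM in TAMs, against 23.9 TPM in microglia, a log2 fold change of 1.31 (adjusted p = 0.00295, limma). H2afx, which is marked at DNA breaks, averaged 28.7 TPM in TAMs, against 11.4 TPM in microglia, a log2 fold change of 1.20. H2afj averaged 32.7 TPM in TAMs, against 16.8 TPM in microglia, a log2 fold change of 0.92.

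Markers of other cells differed between the libraries. Summed over 10 microglia and macrophage markers, TPM was 3883 to 9148 in TAMs and 15833 to 18895 in microglia, and on TPM 1 marker was higher and 6 were lower in TAMs. These markers were thus abundant in all libraries. Of 15 markers of the granule neuron lineage and of medulloblastoma, 12 were tested, 4 were higher and 4 lower in TAMs, and the sums were 7.41 to 89.7 TPM in TAMs and 19.5 to 77.2 TPM in microglia. TAM 5, with the lowest histone sums, had the highest of these sums. Atoh1, the defining factor of granule neuron precursors, had 1.06, 0.238, 1.33, 1.03 and 6.27 TPM in TAMs and was listed at 0 in the 3 microglia libraries. It was named alone, after its values were seen, from this list that went both ways. All 10 endothelial markers and all 6 mural markers were lower in TAMs, with sums of 53.9 to 141 and 3.21 to 19.2 TPM in TAMs, against 769 to 2459 and 281 to 805 TPM in microglia. On TPM, 6 of 7 astrocyte and 7 of 7 tested oligodendrocyte markers were lower in TAMs, as were 3 of 4 erythroid and 1 of 3 T and NK cell markers, where 56.4% of all tested genes were lower. After rescaling, 6 astrocyte, 4 oligodendrocyte and 1 erythroid marker were lower, and no T and NK cell marker was called (limma; none at an unadjusted p under 0.05). Of 5 tested neutrophil markers 3 were higher and 1 lower on TPM. Of 3 tested B and plasma cell markers 2 were higher, where 8.22% of all tested genes were higher. Neutrophil sums were 318, 629, 363, 363 and 237 TPM in TAMs, against 426, 410 and 461 TPM in microglia. Only TAM 2 was above the microglia there, and the other TAM libraries were below. B and plasma sums were 53.9 to 640.3 TPM in TAMs and 8.80 to 19.0 TPM in microglia. The part of these cells in the histone values was not tested. Without TAM 5 the log2 ratio of the H4 sums was 1.34, against 1.23 with all libraries. Atoh1 was above 0 in the other TAM libraries too, so this ratio does not show the part of these cells.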

How the data were processed

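Bulk RNA-seq of 5 TAM and 3 microglia libraries was deposited as 1 table of 38026 genes. Its columns give TPM for each library, as the authors computed it, per the file headers. Beside these stand results of the authors' own DESeq2 comparison, per the file headers. They are a mean signal (normalised count), a log2 fold change and a p-value with no adjustment, as deposited. For the deposited table, the submitters' processing notes name the build mm10, FastQC and DESeq2. Which aligner, quantifier, annotation, strand setting and RNA selection were used is not given in the sources used here. A further 3 unnamed columns were not used.

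Because the authors deposited TPM, no count test was run. The 15262 genes that reached 1 TPM in 3 or more libraries were fitted with limma 3.58.1 (intensity trend, R 4.3.3) on log2(TPM + 1), all 8 libraries together, without covariates, and Benjamini-Hochberg adjusted p-values over all tested genes were held to 0.05. Fold changes are TAM minus microglia on that scale and understate changes of low genes. The fit was tested on simulated data. For rescaled TPM, a library's values were divided by the median, over tested genes above 0 in all libraries, of their ratio to the geometric mean (factors 0.744 to 1.04 in TAMs and 1.17 to 1.55 in microglia). Each library's TPM summed to 990422 to 997832, and depth is unknown.

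Groups and replicate numbers came from the sample titles. Across genes, pairs of TAM libraries correlated at 0.921 to 0.965 and pairs of microglia libraries at 0.942 to 0.973, and mixed pairs at 0.781 to 0.882. Transcript ends and stem-loops came from GENCODE M21, where 2 members were matched by symbol, the transcript used being the longest coding one that holds a stem-loop, or the longest. Near-identical transcripts were found with blastn 2.17.0 among the coding transcripts of the members, so Hist1h2al was not searched. Coordinates of genes are those of the deposited table. Members and lists were chosen with earlier results of these data known. Given in full were the 4 members of highest mean TPM per type, the 3 highest and 3 lowest log2 fold changes, members of Hist3 and Hist4, and from each list the called genes of lowest p, at most 4. Other members are named where a count or pair was described, after their values were seen. Alternatives covered scaling, coding genes only, pseudocount, filter, intensity trend, a replicate block, summed copies, the authors' comparison and leaving out each library.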

Additional observations from a re-analysis of the deposited data

Results flagged for a closer look

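Among the members described in full and the sums over histone types, a TAM library of the 5 is given here where its gap to the nearest other exceeded the 95% limit of Dixon's test, which chance alone passes in about 1 of 20 groups. TAM 1 stood above the other TAM libraries for Hist1h1d (2.95 TPM), Hist1h2al (30.8 TPM), Hist1h2bk (9.01 TPM) and Hist1h2bl (2.48 TPM). TAM 5 stood below the others for Hist1h2bc (62.6 TPM). TAM 2 stood above the others for the summed H3 members (12.7 TPM).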

How the results depend on the processing

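The count of members called higher (10 on TPM) was 16 on rescaled TPM, 17 without a filter, 21 rescaled without a filter, 5 with copies summed and 29 in the authors' comparison, where fewer or more features were tested with copies summed or without a filter. The count of lower members (4 on TPM) was 1 rescaled, 1 rescaled with copies summed, 0 rescaled without a filter and 0 in the authors' comparison. Leaving out 1 library gave 6 to 11 higher and 1 to 7 lower on TPM (7 lower without TAM 1, 1 without microglia 2, 2 without microglia 3), and 8 to 18 higher and 0 to 2 lower on rescaled TPM. Over the 14048 to 15166 genes then tested, 894 to 1303 were higher and 5581 to 9243 lower on TPM. On rescaled TPM, 2485 to 3943 of them were higher and 2144 to 4068 lower. With the replicate block over libraries numbered 1 to 3, there were 9 higher and 2 lower members, against 11 and 2 in the same 6 libraries without it. Of all 14753 genes tested there, 1086 were higher and 8601 lower with the block, and 1072 and 8696 without. Same-numbered libraries deviated together by correlations of 0.0885, 0.0676 and -0.00238, and TAM 3 correlated best with microglia 2, so the numbers were not taken as pairs. Log2 ratios of summed TPM on the rescaled scale were 0.94 for H1, 0.32 for H2A, 1.54 for H2B, 1.48 for H3 and 2.01 for H4. On TPM as deposited they were, without the most abundant member, -1.01 for H2A, -0.070 for H2B and 2.33 for H3, and 0.49 for H2A without Hist1h2al. Leaving out 1 library gave, on TPM as deposited, -0.13 to 0.38 for H1, -0.56 to -0.28 for H2A, 0.67 to 0.93 for H2B, 0.45 to 0.84 for H3 and 1.08 to 1.43 for H4. Hist3h2a, -0.17 on TPM, was 0.48 rescaled, 0.48 rescaled without a filter, 0.41 (without TAM 1), 0.47 (TAM 2), 0.51 (TAM 3), 0.51 (TAM 4), 0.50 (TAM 5) and 0.50 (microglia 2) rescaled with 1 library left out, and 0.65 in the authors' comparison. Hist1h2bg, -0.11 on TPM, was 0.70 rescaled without TAM 5. The cause was not tested. The rescaling with a library left out, without a filter or with copies summed was added after seeing the data. Most members are low, so their single values are limited by depth, which is unknown.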

Other observations

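Of 15 mitosis genes, 15 were higher in TAMs on TPM, after rescaling and in the authors' deposited table. Of all genes tested there, 8.22%, 24.6% and 17.6% were higher. The mitosis genes had a median log2 fold change of 2.01 on TPM and 2.59 after rescaling. Their summed TPM was 214, 295, 266, 167 and 233 in TAMs, against 35.5, 52.4 and 41.0 in microglia. TAM 5, lowest in summed histone TPM, was not the lowest of these. Hist2h2bb, a histone gene listed as a lincRNA and so no member, had 2.14, 1.25, 0.0240, 0.984 and 0.0319 TPM in TAMs, against 4.24, 10.1 and 10.9 TPM in microglia. Hist1h2aj, listed as a pseudogene, stayed at or below 0.923 TPM in TAMs and 0.357 TPM in microglia.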
